A study of Homo sapiens with 48 samples.

Results

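The comparison described here is between 48 and 24 h of doxycycline (Dox) in AMO1 cells that silence IRE1, and it asks which transcripts moved after the first day in both clones that were sequenced. The members are the 12 libraries labelled shIRE1 clone 1 or shIRE1 clone 3 at 24 or 48 h, of 48 libraries in the series, chosen by their labels. AMO1 is an established human multiple myeloma line that grew out of a plasmacytoma. The cells held a piggyBac vector from which 3 shRNAs against 1 target were expressed together once Dox was added at 0.2 µg/ml. In the shIRE1 clones the target was ERN1, the gene of IRE1, and in the shXBP1 clones, used here for comparison at the same times, it was XBP1. Each shIRE1 line was a single clone, every library compared had received Dox, and no control line with an irrelevant shRNA is analysed here. Effects of Dox, of shRNA expression and of the time in culture cannot be told apart from those of IRE1 loss within a clone. Each group had 3 biological replicates grown in flasks, and p-values measure the spread between these. Polyadenylated RNA was sequenced as single-end reads of 50 bases. Times are those of the treatment label, in hours, since the titles give the same figures as days.

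IRE1 is a sensor of unfolded protein in the membrane of the endoplasmic reticulum (ER). Its RNase domain splices XBP1 mRNA so that it encodes XBP1s, a transcription factor for ER chaperones, translocation and vesicle transport, on which antibody-secreting plasma cells depend. IRF4 is the transcription factor that holds plasma cells and myeloma cells in their state, in which genes of the earlier B cell are kept low. Interferon-stimulated genes are switched on when cells sense interferon, and ATF4 drives amino acid supply and related genes when translation is restrained by the integrated stress response.

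Promoter sequences are shown first for genes whose direction after 24 h is described below, to give the letters behind the motif counts of the ER and interferon genes. Sequences are from RefSeq on GRCh38.p14, 30 bases each, 5′ to 3′ on the strand of the gene, and capitals mark the match to the motif. The XBP1 window lies at chr22:28800597-28800626 on the minus strand and holds the ER stress element, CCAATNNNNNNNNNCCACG. The HERPUD1 window, chr16:56932016-56932045 on the plus strand, holds the second form of that element, ATTGG and CCACG with 1 base between them. The windows of TXNDC5 (chr6:7910151-7910180, minus strand), FKBP11 (chr12:48924971-48925000, minus strand) and KDELR3 (chr22:38468040-38468069, plus strand) hold the core of the unfolded protein response element, TGACGTG, read on the other strand in FKBP11 and KDELR3.
XBP1: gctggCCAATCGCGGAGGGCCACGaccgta
HERPUD1: cggacgccgATTGGGCCACGttgggagagt
TXNDC5: gcactggcggcTGACGTGgcgctcggcggc
FKBP11: ccctgctgaaaCACGTCAgctttggcttgg
KDELR3: gccgccctggcCACGTCAccgcccggccaa
The windows of DTX3L (chr3:122564322-122564351), PARP14 (chr3:122680800-122680829) and IFIT3 (chr10:89327831-89327860), all on the plus strand, hold the core of the interferon-stimulated response element, GAAANNGAAA, read on the other strand in IFIT3.
DTX3L: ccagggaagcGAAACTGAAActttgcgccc
PARP14: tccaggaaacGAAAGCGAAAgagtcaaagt
IFIT3: agccgttaggTTTCATTTTCctcctcccaa
A match is a description of letters and not a bound site. Both strands of 300 bases per promoter were searched, from 250 bases before to 50 after the start, and 58 of the 77 genes named in the text had an entry.

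Depth was even. Total counts of the 12 libraries ran from 24108396 to 40347288, so that 1 count was at most 0.0415 CPM (counts per 1000000 counts), and mitochondrial genes took 3.28% to 4.55% of counts. All CPM values are scaled by TMM over the 48 libraries. The plasma cell label held: 10 of 10 plasma cell markers were above 1 CPM in all 12 libraries, with summed levels of 10569 to 13875 CPM. Summed markers of myeloid, epithelial, fibroblast, endothelial and erythroid or platelet cells stayed at or below 2.99 CPM in each library, with S100A9, KRT19, DCN, VWF, HBA1, PPBP and PF4 at 0 in all 12. The 6 T and NK cell markers summed to 17.5 to 21.0 CPM, most of it CD3E (13.5 to 17.3 CPM) and CD8A (2.99 to 4.14 CPM), without a shift between 24 and 48 h.

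One set of libraries went against its label, and every value of clone 3 at 48 h has to be read with this. At 10 genes that differed between the clones by a log2 CPM of at least 2 at 0 and at 24 h, a rule added after the data were seen because the planned difference of 3 at 0 and 72 h left 0 genes, each library was placed between clone 3 (position 0) and clone 1 (position 1). The 3 libraries labelled clone 3, 48 h lay at a median position of 1.05 to 1.20, with 10 of 10 genes nearer clone 1. The 3 libraries labelled clone 1, 72 h lay at -0.0835 to -0.000315, with 9 or 10 of 10 genes nearer clone 3. The libraries of clone 1 at 48 h and of clone 3 at 72 h lay with their labels. Those at 0 and 24 h did so too, but the genes were chosen by their difference at these times. Their place is therefore no check of the 0 and 24 h labels. LAMB4, a laminin chain, shows this in counts. It had 1167, 1349 and 1263 counts in clone 1 at 24 h and 1419, 1742 and 1131 at 48 h, 0 in each clone 3 library at 0, 24 and 72 h, 1505, 2051 and 2049 in the libraries labelled clone 3, 48 h, and 0 in those labelled clone 1, 72 h.

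**Figure D1:**
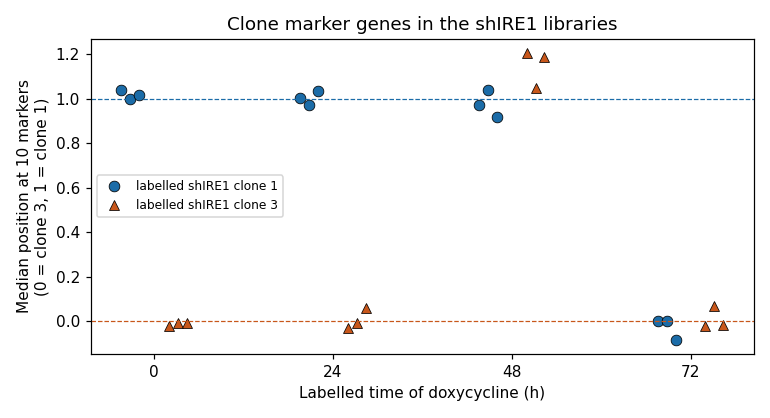
Median position of each shIRE1 library at 10 clone marker genes (vertical axis, 0 at the clone 3 level and 1 at the clone 1 level) against the labelled hours of Dox, with circles for libraries labelled clone 1 and triangles for those labelled clone 3. The 3 libraries labelled clone 3, 48 h lie at 1.05 to 1.20 and the 3 labelled clone 1, 72 h at -0.0835 to -0.000315, each at the other clone's level.

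The labels were kept, and which clone and time these 6 libraries came from was not settled. An exchange of the libraries labelled clone 3, 48 h with those labelled clone 1, 72 h was not tested. No contrast here is known to hold clone 3 at 48 h. The shared counts, the gene lists and many of the single genes are therefore also given in a second form. It sets clone 1 (48 against 24 h) beside clone 3 (72 against 24 h), and its 48 and 72 h libraries lay with their labels at the marker genes. The 6 conflicting libraries are not contrasted there, but they stayed in the fits, where they shared in the filter, the scaling and the estimate of spread. In that second form the later time of clone 3 is 72 h and not 48 h. Of the 77 genes named, 76 were called the same way there too, and UHRF1 was not. A smaller split touched clone 3 at 24 h, where replicate 1 stood apart from replicates 2 and 3 by at least 1.5 on the log2 scale at 86 features, 3 of them among the shared genes below. Replicate 1 was higher at some of these features and lower at others. Libraries were placed on a scale with replicates 2 and 3 near 0 and replicate 1 at 1. Those labelled clone 3 lay at 0.133 to 0.161 at 48 h, 0.118 to 0.291 at 72 h and 0.660 to 0.782 at 0 h. Those labelled clone 1 lay at 0.546 to 0.767, and at 0.610 to 0.763 at 72 h. Clone 3 at 0 h thus lay near the range of clone 1. The position at these features does not separate the clones and is no check of the labels. What sets these features apart was not tested. Leaving replicate 1 out gave 3277 shared genes.

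Many genes moved between 24 and 48 h, mostly by less than 2-fold. In clone 1 2747 of 17154 genes tested rose (16%) and 2457 fell (14.3%), of which 409 changed at least 2-fold. In the libraries labelled clone 3 2959 of 17204 rose (17.2%) and 3001 fell (17.4%), with 970 at least 2-fold. Called the same way in both clones were 3550 of 16795 genes, 1779 higher (10.6%) and 1771 lower (10.5%), against 37 called in opposite ways. These 3550 genes are called the shared second wave below. The name follows the labels, and the libraries labelled clone 3, 48 h read as clone 1 at the marker genes. At least 2-fold in both clones were 217 higher (1.29%) and 71 lower (0.423%). With clone 3 at 72 h in place of the libraries labelled clone 3, 48 h, 3379 genes were shared with clone 1 at 48 h, 1703 higher and 1676 lower. The conflicting libraries were not contrasted here but stayed in the fits. Fitted without the libraries labelled clone 1, 72 h, clone 1 had 4800 genes called from 24 to 48 h, 2322 higher and 2478 lower. Called the same way in all 3 contrasts were 3035, with 1508 higher (8.98%) and 1527 lower (9.09%), which is 85.5% of the 3550. For clone 3, 72 against 24 h called 2819 genes higher (16.4%) and 2948 lower (17.1%). The contrasts of clone 3 share their 24 h libraries.

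**Figure D2:**
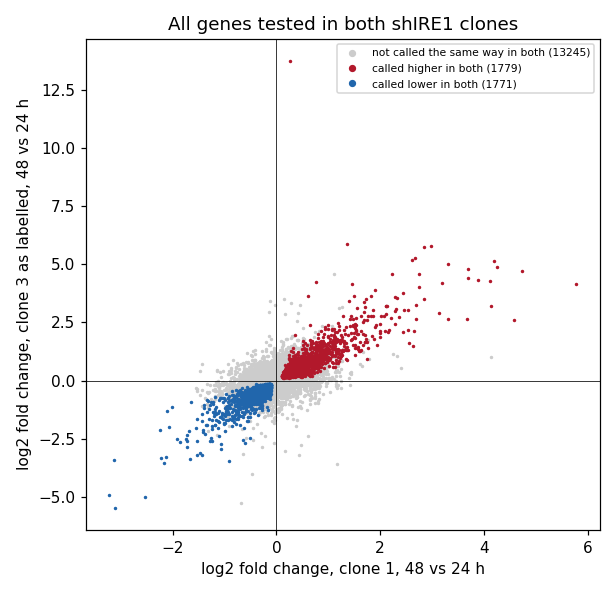
Log2 fold change 48 against 24 h of each gene tested in both shIRE1 clones, clone 1 on the horizontal and the libraries labelled clone 3 on the vertical axis, with 1779 genes called higher in both and 1771 called lower in both in colour and the other genes in grey. The coloured points lie mostly steeper than the diagonal, with the larger change in clone 3 for 79.7% of the shared genes, and the single point far above the rest is the clone marker LAMB4.

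The groups did not overlap, on the same side in both clones, in 4712 of 16795 genes (28.1%). The change was larger in the libraries labelled clone 3 in 2831 of the 3550 shared genes (79.7%). The median size of the change in them was 0.34 on the log2 scale in clone 1, 0.46 in the libraries labelled clone 3, and 0.44 in clone 3 at 72 h. Of these genes 219 differed between the clones already at 24 h, where 691 of 18050 genes did (3.83%). In 108 of the 219, clone 1 stood at 24 h on the side toward which clone 3 moved, 8 of them at least 2-fold. For such genes part of the apparent change in clone 3 is as large as the difference between clones at 24 h, and TENM3, BTK, DOCK8, INHBE, PFKFB4, CTH, SPRY2 and ERN1 below are of this kind.

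The first day had moved more genes than the second. Between 0 and 24 h clone 1 had 5557 genes higher (32.4%) and 4967 lower (29%), and clone 3 had 3930 higher (22.8%) and 4017 lower (23.3%). Of the shared second wave, 711 genes (306 higher, 405 lower at 48 h) had stayed within 0.25 of 0 on the log2 scale during the first day in both clones. Another 604 had already risen in both clones and rose further, 565 had fallen and fell further, 190 rose after falling and 168 fell after rising. These counts share the 24 h libraries between both steps.

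The shXBP1 clones moved little over the same day. In shXBP1 clone 1, 32 of 18050 genes were called (0.177%), and in clone 18 117 were (0.648%), with 2244 and 1816 at an unadjusted p under 0.05. These counts depend on single libraries and ran from 1 without 24 h replicate 3 of clone 1 to 446 without its replicate 1, and from 32 to 57 in clone 18. The difference between shIRE1 and shXBP1 in the step from 24 to 48 h was itself tested. It was higher for shIRE1 in 2827 of 18050 genes (15.7%) and lower in 2572 (14.2%), and 3123 of the 3550 shared genes were called in it the same way. With shIRE1 clone 1 alone, 1589 were higher (8.8%) and 1277 lower (7.07%), among them 2137 of the 3550. This leaves the libraries in question out of the contrast but not out of the fit. In the 3550 genes the median size of the change was 0.10 in shXBP1 clone 1 and 0.078 in clone 18. Because cells were measured in bulk, fewer cells of a state and less RNA per cell cannot be told apart.

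ERN1 itself, the knockdown target, is the check of the shRNA. It was at 127, 125 and 129 CPM in clone 1 at 24 h and at 92.5, 93.9 and 103 CPM at 48 h, a log2 change of -0.39 ± 0.04 (SE, adjusted p = 5.5e-07, edgeR). In clone 3 it was at 144, 145 and 146 CPM at 24 h, at 126, 119 and 118 CPM in the libraries labelled 48 h (-0.26 ± 0.05, adjusted p = 0.000514) and at 122, 125 and 128 CPM at 72 h. Most of the loss in clone 3 had come on the first day, by -1.6 against -0.27 in clone 1, from a 0 h level of 438 ± 15.4 CPM (mean ± SD, n = 3) against 152 ± 2.38 CPM. From 24 to 48 h ERN1 also changed in shXBP1 clones 1 and 18, by -0.15 ± 0.04 and -0.24 ± 0.04 (edgeR, adjusted p = 0.171 and 0.00716). The difference between shIRE1 and shXBP1 in this step was small, at -0.12 ± 0.04 (edgeR, adjusted p = 0.0427). With shIRE1 clone 1 alone it was -0.19 ± 0.05 (adjusted p = 0.0185). XBP1 mRNA, which at 24 h stood at 189.9, 196 and 192 CPM in clone 1, fell to 129.9, 130.4 and 131 CPM at 48 h (-0.56 ± 0.04, adjusted p = 1.96e-09). It fell in clone 3 from 195, 199.6 and 199 to 109.6, 116 and 113 CPM (-0.81 ± 0.06, adjusted p = 1.13e-07), and it was at 119.8, 118 and 124 CPM at 72 h. In shXBP1 clones 1 and 18, where it is the target, XBP1 changed by -0.34 ± 0.05 and -0.49 ± 0.05 (edgeR, adjusted p = 0.0112 and 2.78e-05). The difference between shIRE1 and shXBP1 in this step was -0.26 ± 0.05 (edgeR, adjusted p = 0.000445). With shIRE1 clone 1 alone it was -0.14 ± 0.06 and not called (adjusted p = 0.152). Gene counts do not separate spliced from unspliced XBP1.

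Most of the fall of IRF4 came after the first day. In clone 1 it was at 1007, 968 and 989 CPM at 24 h and at 605, 545 and 578 CPM at 48 h (-0.77 ± 0.04, adjusted p = 1.32e-10). In clone 3 it was at 929, 1034 and 1008 CPM at 24 h, 303, 314 and 323 CPM in the libraries labelled 48 h (-1.66 ± 0.05, adjusted p = 1.47e-11) and 327, 319.8 and 359 CPM at 72 h (-1.57 ± 0.05). The libraries labelled clone 1, 72 h, which carry clone 3 markers, were at 597, 603 and 610.5 CPM. The fall from 0 to 24 h had been -0.40 in clone 1 and -0.53 in clone 3. In shXBP1 clone 1 IRF4 was at 1639.9, 1549 and 1572 CPM at 24 h and 1532, 1684 and 1567 CPM at 48 h, and in clone 18 at 1659, 1617 and 1577 and 1618, 1600.2 and 1503 CPM. The difference between shIRE1 and shXBP1 in this step was -1.19 ± 0.05 (adjusted p = 2.12e-14), and with shIRE1 clone 1 alone -0.75 ± 0.06 (adjusted p = 9.64e-09).

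**Figure D3:**
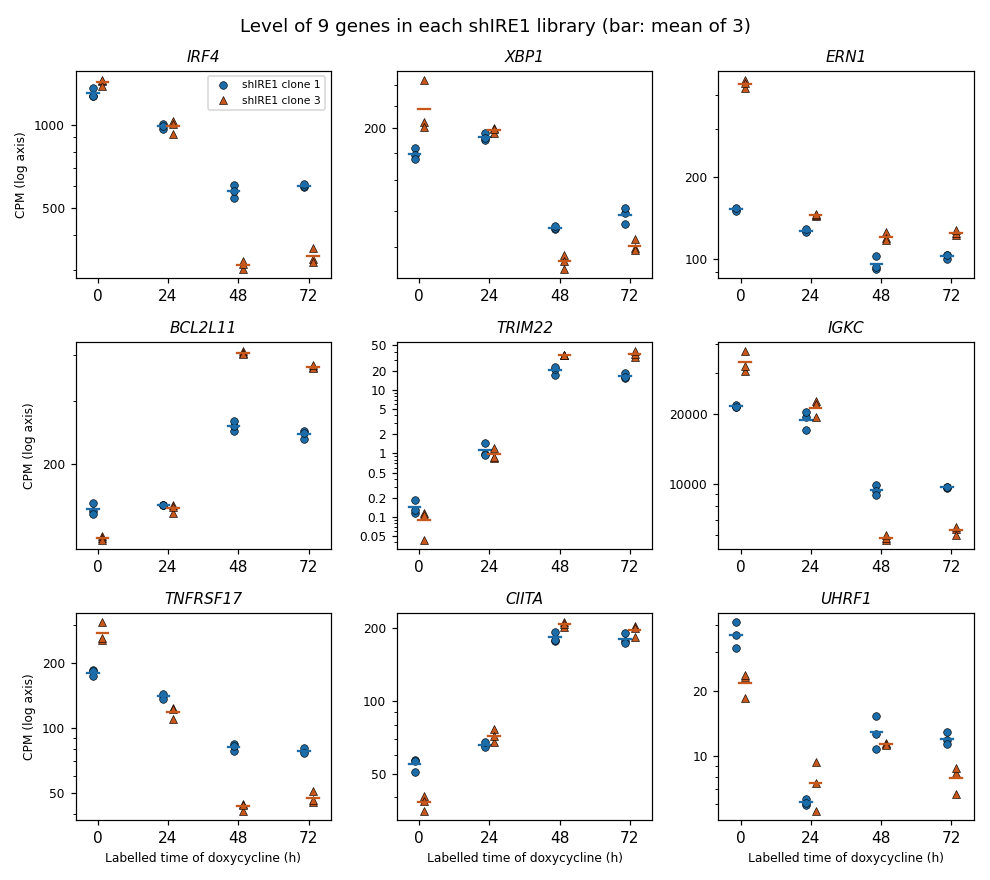
CPM (log axes) of 9 genes in each shIRE1 library against the labelled hours of Dox, with circles for clone 1, triangles for clone 3 and a bar at the mean of 3. IRF4, XBP1, IGKC and TNFRSF17 step down and BCL2L11, TRIM22 and CIITA step up between 24 and 48 h with no overlap. UHRF1 falls in the first day and is partly regained at the labelled 48 h, while in clone 3 at 72 h it lies near its 24 h level.

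Among the largest shared rises were genes of the interferon response. TRIM22, an antiviral ubiquitin ligase, was at 0.968, 0.953 and 1.44 CPM at 24 h in clone 1 and at 16.9, 21.1 and 23.1 CPM at 48 h. Clone 3 held 0.86, 0.888 and 1.21 CPM, then 34.8, 34.9 and 35.1 CPM in the libraries labelled 48 h and 32.8, 36.5 and 40.4 CPM at 72 h. The log2 changes were 4.19 ± 0.15 and 5.14 ± 0.12 (adjusted p = 5.65e-13 and 5.42e-13), while in the shXBP1 libraries TRIM22 stayed at or below 0.578 CPM. It had already risen from 0 to 24 h, by 2.9 and 3.35.

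DTX3L, a ubiquitin ligase that works with PARP9, rose from 1.14, 1.16 and 1.13 to 5.09, 8.13 and 7.65 CPM in clone 1 and from 1.06, 0.888 and 0.678 to 31.9, 32.97 and 30.1 CPM in the libraries labelled clone 3 (2.61 ± 0.17 and 5.19 ± 0.18). It was at 27.8, 27.5 and 32.5 CPM in clone 3 at 72 h. DTX3L and PARP9 are neighbours, and reads that overlap both could not be assigned, because the use of strand in counting is not given in the sources used here. PARP14, an ADP-ribosyltransferase of the same locus, rose from 7.89, 6.67 and 7.69 to 14.9, 17.6 and 18.2 CPM in clone 1 and from 7.66, 7.71 and 7.55 to 44.04, 41.4 and 42.4 CPM in the libraries labelled clone 3. IFNG, which encodes interferon gamma, stood low but rose in both, from 1.29, 1.65 and 1.5 to 4.16, 4.88 and 5.59 CPM and from 1.37, 0.768 and 0.796 to 8.45, 8.72 and 8.26 CPM (1.71 ± 0.15 and 3.17 ± 0.17), and was at 6.98, 8.11 and 9.07 CPM in clone 3 at 72 h. In the shXBP1 clones IFNG was at 0.198 to 1.63 CPM over both times.

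The interferon-stimulated genes did not move as a block. Of 29 tested, 11 rose and 5 fell in both clones, beside 10.6% and 10.5% of all genes, and the median was 0.13 in clone 1, 0.44 in the libraries labelled clone 3 and 0.61 in clone 3 at 72 h, where the medians over all genes tested were 0.0059, -0.0076 and -0.013. With clone 3 at 72 h added, 11 rose and 4 fell. The risers included TRIM22, PARP9, MX2, IFIT5, USP18, MX1, PARP14, SAMD9L, IFIH1 and BST2, and the fallers were IFIT2 (-1.53 and -1.67), IFIT3 (-1.43 and -1.72), OASL (-1.19 and -1.36), IFI44 (-1.19 and -0.70) and SAMD9 (-0.36 and -0.45). The fallers include antiviral effectors of the same response as the risers, such as the IFIT proteins, which bind viral RNA. The interferon response motif GAAANNGAAA was in the promoter of 6 of 7 risers and 3 of 3 fallers with an entry, and in 16 of 20 of the list, against 4.38% of 27305 genes. The motif was thus present in both directions. In the shXBP1 clones the list median was -0.14 and -0.18 over the same day.

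The other large rises were of mixed kind. ASAP2, a GTPase-activating protein for ARF, went from 2.76, 3.41 and 3.19 to 14.3, 15.6 and 15.4 CPM in clone 1 and from 3.36, 3.098 and 3.42 to 39.9, 40.5 and 37.5 CPM in the libraries labelled clone 3 (2.28 ± 0.09 and 3.58 ± 0.09). PTGER4, a prostaglandin E2 receptor, rose nearly alike in both, from 1.85, 1.85 and 2.41 to 10.3, 10.2 and 11.02 CPM and from 1.84, 1.44 and 1.62 to 10.2, 11.2 and 11.1 CPM (2.37 ± 0.11 and 2.74 ± 0.15), with 11.7, 9.92 and 8.69 CPM in clone 3 at 72 h. CLEC7A, the beta-glucan receptor dectin-1, rose by 1.72 ± 0.18 and 3.53 ± 0.14, to 4.35, 4.88 and 4.85 and 10.3, 10.2 and 9.27 CPM, and by 3.52 ± 0.14 in clone 3 at 72 h. LINC00861, a long non-coding RNA, rose by 3.69 ± 0.24 and 4.81 ± 0.28, and by 5.04 ± 0.28 in clone 3 at 72 h, from at most 0.733 CPM at 24 h. TENM3, a teneurin of the cell surface, was 1 of the 10 clone markers. It rose in clone 1 by 0.75 ± 0.08, from 9.53, 8.44 and 8.75 to 15.4, 14.6 and 14.9 CPM. The 4.23 ± 0.14 of the libraries labelled clone 3 (0.665, 0.985 and 1.003 to 18.2, 16.6 and 16.3 CPM) stands beside a difference of 3.29 ± 0.11 between the clones at 24 h. In clone 3 at 72 h TENM3 was 0.82 ± 0.18 above 24 h.

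**Figure D4:**
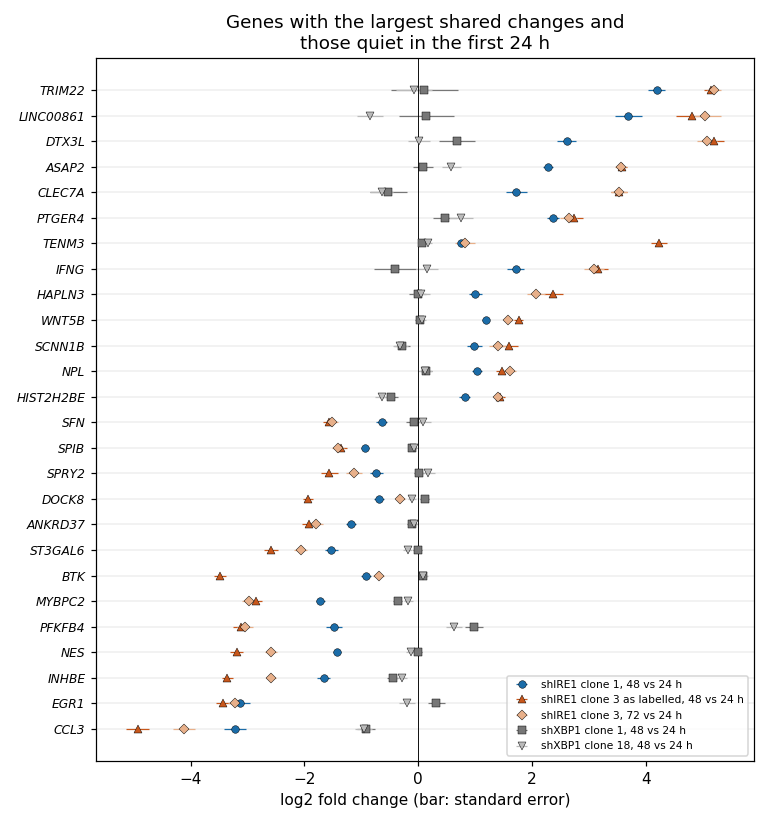
Log2 fold change (horizontal axis, bars are standard errors) of the genes with the largest shared rises and falls and of those that had stayed within 0.25 of 0 in the first 24 h, in 5 contrasts. The 3 shIRE1 contrasts lie on the same side of 0 for each gene, while TENM3, BTK and DOCK8 lie much farther out in the libraries labelled clone 3, 48 h than in clone 3 at 72 h.

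The largest shared falls were led by CCL3 and EGR1. CCL3, a chemokine that myeloma cells secrete, was at 24.5, 29.1 and 43.8 CPM in clone 1 at 24 h and 4.01, 3.25 and 3.03 CPM at 48 h. In clone 3 it was at 25.6, 28.9 and 38.99 CPM at 24 h, 1.41, 0.718 and 1.04 CPM in the libraries labelled 48 h and 1.91, 2.02 and 1.44 CPM at 72 h, log2 changes of -3.23 ± 0.19, -4.93 ± 0.20 and -4.12 ± 0.19. CCL3 was also 1 of the few genes that fell in both shXBP1 clones in this step (-0.92 ± 0.16 and -0.96 ± 0.15, adjusted p = 0.0155 and 0.00209), by less than in the shIRE1 clones (difference -3.13 ± 0.20, adjusted p = 2.61e-11). Its near-identical copies make the split of reads between them uncertain. EGR1, an immediate early transcription factor, had moved in opposite directions on the first day (-1.77 in clone 1, 2.52 in clone 3) to reach 29.9, 30.9 and 30.8 and 32.8, 35.3 and 32.2 CPM. By 48 h it was at 3.98, 2.77 and 3.803 CPM in clone 1 and 3.94, 2.67 and 2.79 CPM in the libraries labelled clone 3 (-3.13 ± 0.17 and -3.44 ± 0.12).

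NES, an intermediate filament protein, fell from 47.1, 51.2 and 53.7 to 20.5, 18.6 and 17 CPM in clone 1 and from 47.5, 45.9 and 48.01 to 5.49, 5.23 and 4.81 CPM in the libraries labelled clone 3, with 8.11, 7.38 and 8.09 CPM at 72 h. MYBPC2, a myosin-binding protein, fell from 41.4, 45.8 and 45.97 to 14.8, 12.4 and 13 CPM and from 33.7, 39.7 and 38.8 to 5.49, 5.03 and 5.12 CPM. INHBE, a subunit of activins whose gene responds to ER stress, changed by -1.66 ± 0.11 and -3.36 ± 0.10, and ST3GAL6, a sialyltransferase, by -1.53 ± 0.12 and -2.59 ± 0.12, both to below 5 CPM. In clone 3 at 72 h these changes were -2.59 ± 0.09 and -2.07 ± 0.11. At 24 h INHBE had differed between the clones by -1.09 ± 0.10 (clone 1 minus clone 3). BTK, the kinase downstream of the B cell receptor, changed by -0.92 ± 0.09 in clone 1, from 9.62, 9.88 and 8.53 to 4.75, 4.56 and 5.59 CPM. The -3.48 ± 0.11 in the libraries labelled clone 3 (28.9, 31.7 and 28.5 to 2.85, 3.03 and 2.101 CPM) stands beside a clone difference of -1.67 ± 0.08 at 24 h, and clone 3 at 72 h was -0.70 ± 0.09 from its 24 h level.

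Some genes changed by little or nothing on the first day and then moved. Among those within 0.25 of 0 in both clones from 0 to 24 h, WNT5B, a secreted Wnt ligand, had the clearest levels. It was at 27.1, 26.9 and 27.3 CPM at 0 h, 30.4, 33.02 and 33.4 CPM at 24 h and 76.9, 73.2 and 68.6 CPM at 48 h in clone 1. The clone 3 libraries held 33.8, 28.9 and 30.4, 29.2, 29.9 and 29.8 and 104, 98.02 and 100.4 CPM at the same labelled times, with 94.6, 92.5 and 80.3 CPM at 72 h. Its change on the first day was already called in clone 1 (0.25 ± 0.06, adjusted p = 0.00205). HAPLN3, a link protein of the hyaluronan matrix, rose by 1.0 ± 0.12 and 2.38 ± 0.16, SCNN1B, a subunit of the epithelial sodium channel, by 0.99 ± 0.13 and 1.6 ± 0.15, and NPL, a lyase of sialic acid, by 1.03 ± 0.09 and 1.47 ± 0.11. HAPLN3 in clone 3 at 72 h rose by 2.06 ± 0.16. HIST2H2BE, a replication-independent histone H2B gene of a multigene family whose counts are uncertain for that reason, rose by 0.82 ± 0.10 and 1.44 ± 0.07. It had been called on the first day in clone 3 (0.21 ± 0.08, adjusted p = 0.0435). In shXBP1 clone 18 it changed by -0.64 ± 0.12 (adjusted p = 0.00821).

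Falls that came mostly after 24 h included SPIB, a transcription factor of B cells and plasmacytoid dendritic cells. It was at 20.6, 21.1 and 20 CPM at 24 h and 11.4, 10.6 and 10.1 CPM at 48 h in clone 1, and at 16.8, 16.2 and 16.4 and 5.42, 6.95 and 6.85 CPM in the libraries labelled clone 3, with 6.05, 7.01 and 5.57 CPM at 72 h. In clone 1 a fall of SPIB on the first day was already called (-0.23 ± 0.06, adjusted p = 0.00428). ANKRD37, a target of hypoxia-inducible factors, changed by -1.18 ± 0.09 and -1.92 ± 0.11, SFN, the 14-3-3 sigma protein, by -0.64 ± 0.10 and -1.58 ± 0.10, and SPRY2, an inhibitor of receptor tyrosine kinase signalling, by -0.74 ± 0.11 and -1.56 ± 0.14. SFN had been called higher on the first day in clone 1 (0.24 ± 0.09), and SPRY2 differed between the clones at 24 h by -0.53 ± 0.10. For DOCK8, a guanine nucleotide exchange factor for CDC42, the -1.93 ± 0.09 of the libraries labelled clone 3 stands beside a clone difference of -1.44 ± 0.08 at 24 h. It changed in clone 1 by -0.70 ± 0.09 and in clone 3 at 72 h by -0.32 ± 0.08, after a rise on the first day in clone 1 (0.22 ± 0.09).

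The machinery of the secretory pathway fell broadly and by moderate amounts. Of 41 genes of ER folding and quality control, 30 fell and 1 (DNAJC10, a disulfide reductase) rose in both clones, beside 10.5% and 10.6% of all genes, and all of these were called the same way with clone 3 at 72 h added. The median was -0.39 in clone 1, -0.39 in the libraries labelled clone 3 and -0.44 in clone 3 at 72 h. HERPUD1, a component of ER-associated degradation, was at 365, 375 and 378 CPM at 24 h and 241, 236 and 242 CPM at 48 h in clone 1, and at 344, 349 and 371 and 176, 178 and 179 CPM in the libraries labelled clone 3, with 189.6, 191 and 194 CPM at 72 h. FKBP11, a prolyl isomerase of secretory cells, fell from 95.2, 98.5 and 97.2 to 57.8, 58.6 and 60.97 CPM and from 98.4, 95.7 and 101 to 50.1, 51.9 and 52.5 CPM. It fell in both shXBP1 clones too (-0.29 ± 0.05 and -0.31 ± 0.05), by less than in shIRE1 (difference -0.51 ± 0.05, adjusted p = 6.03e-08). TXNDC5, a disulfide isomerase whose exons are shared with an annotated read-through gene so that its counts are uncertain, changed by -1.13 ± 0.12 and -2.05 ± 0.30. The chaperone HSPA5 fell by 0.53 and 0.43 on the log2 scale.

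These genes had largely begun to fall before. Between 0 and 24 h 35 of them fell in clone 1 and 35 in clone 3, beside 29% and 23.3% of all genes. The medians were -0.46 and -0.49. In the shXBP1 clones, where XBP1 itself stood at 49.2, 42.5 and 44.05 and 64.7, 60.3 and 62.8 CPM at 24 h, the list median from 24 to 48 h was -0.055 and -0.056. The ER stress element shown above for XBP1 was in the promoter of 6 of 27 falling genes with an entry, namely HSPA5, CANX, PDIA6, ERO1B, CRELD2 and XBP1, against 0.0916% of 27305 genes. It was also in that of HSP90B1 and CALR, which were not called lower in both clones, and so in 8 of 37 genes of the whole list. The second form was in 2 of the 27, HERPUD1 and SDF2L1, and in 3 of the 37, against 0.0696% of all. The core TGACGTG was in 3 of the 27 and in 5 of the 37, among them DNAJC10, the gene that rose, against 2.4%. The falling genes thus held these motifs about as often as the whole list.

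Genes of translocation into the ER and of transport to the Golgi fell to a similar extent. Of 53 tested, 36 fell and 0 rose in both clones, beside 10.5% and 10.6% of all genes. Of the 36, 35 also fell in clone 3 at 72 h, and the medians were -0.26, -0.32 and -0.30. At an unadjusted p under 0.05 (edgeR), 39 lay lower and 0 higher in both. SEC24D, a cargo adaptor of COPII vesicles, went from 98.5, 92.7 and 97.4 to 60.7, 57.2 and 61.2 CPM in clone 1 and from 97.97, 102 and 101 to 53.8, 54.6 and 50.4 CPM in the libraries labelled clone 3. PREB, which activates the COPII GTPase SAR1, changed by -0.47 ± 0.05 and -1.18 ± 0.07, and KDELR3, a receptor that returns chaperones from the Golgi, by -1.22 ± 0.10 and -0.99 ± 0.14. The core TGACGTG was in the promoter of 8 of 29 falling genes with an entry and in 11 of 45 of the list, against 2.4% of all genes.

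The product of that pathway in these cells, the antibody, fell as well. Of 7 immunoglobulin chain genes tested, 4 fell in both clones and 0 rose, beside 10.5% and 10.6% of all genes. The medians were -0.61, -1.15 and -1.44, beside -0.42 and -0.061 in the shXBP1 clones. At an unadjusted p under 0.05 (edgeR), 7 lay lower and 0 higher in both. IGKC, the constant region of the kappa light chain, stood at 17096, 19282 and 20262 CPM in clone 1 at 24 h and at 9849.8, 9332 and 8924 CPM at 48 h (-1.01 ± 0.05, adjusted p = 7.21e-11). In clone 3 it stood at 19303, 22624 and 21929 CPM at 24 h, 5740.3, 5833 and 6019 CPM in the libraries labelled 48 h (-1.86 ± 0.07) and 6360.4, 6044 and 6490.2 CPM at 72 h. IGHA1, the heavy chain of IgA1, changed by -0.58 ± 0.10 and -1.26 ± 0.13, but its difference from shXBP1 was -0.38 ± 0.16 (adjusted p = 0.0868) and, with clone 1 alone, -0.05 ± 0.20. IGHG2, at 9.54 to 36.7 CPM, changed by -0.90 ± 0.11 and -1.64 ± 0.11. Constant regions are near-identical copies, so that counts of single chains are uncertain.

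Most genes of the plasma cell list fell, IRF4 itself among them. Of 24 tested, 14 fell and 1 (POU2AF1, a coactivator of octamer factors) rose in both clones, beside 10.5% and 10.6% of all genes. The same numbers were called with clone 3 at 72 h added. The medians were -0.25, -0.54 and -0.53, beside 0.0039 and -0.083 in the shXBP1 clones. TNFRSF17 (BCMA), a survival receptor of plasma cells, was at 140.4, 143 and 136 CPM at 24 h and 84.2, 77.8 and 82.4 CPM at 48 h in clone 1, and at 124, 109.95 and 122 and 41.2, 44.6 and 43.8 CPM in the libraries labelled clone 3 (-0.77 ± 0.04 and -1.46 ± 0.07). GPRC5D, an orphan receptor on the surface of plasma cells, fell from 82.5, 86.2 and 92.6 to 40.6, 32.9 and 35.8 CPM and from 72.3, 76.96 and 77.2 to 12.1, 12.4 and 12.5 CPM, and to 16.8, 16.4 and 16.1 CPM in clone 3 at 72 h (-1.25 ± 0.07, -2.61 ± 0.06 and -2.2 ± 0.06). Both are surface antigens to which myeloma therapies are directed. PRDM1 (BLIMP-1), the repressor that shuts off the B cell programme, fell by 0.30 and 0.47 on the log2 scale, and by 0.66 in clone 3 at 72 h.

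In the list of genes of the earlier B cell stage more rose than fell. Of 28 tested, 17 rose and 5 fell in both clones, beside 10.6% and 10.5% of all genes. With clone 3 at 72 h added 17 rose and 4 fell, and the medians were 0.70, 0.78 and 0.83. The risers included MHC class II genes and their regulator, so these medians are not those of B cell genes outside that set. CIITA, the transactivator of MHC class II, was at 65.7, 64.9 and 67.7 CPM at 24 h and 194, 177 and 179.6 CPM at 48 h in clone 1, and at 67.5, 76.8 and 71.99 and 212, 203 and 209 CPM in the libraries labelled clone 3, with 206, 201 and 184 CPM at 72 h. Its rises of 1.48 ± 0.05 and 1.52 ± 0.07 were close in size in both clones. HLA-DQA1 went from 50.9, 54.1 and 54 to 149, 152 and 155 CPM and from 63.2, 63.99 and 64.3 to 164, 172 and 165 CPM, and it has a close paralog. HLA-DRA, HLA-DRB1, HLA-DPA1, HLA-DPB1, HLA-DQB1, HLA-DMA, HLA-DMB and CD74 rose by 0.60 to 1.24 in clone 1 and 0.75 to 1.29 in the libraries labelled clone 3.

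Beside these genes the B cell marker MS4A1 (CD20) was at 0.216 to 1.97 CPM over the 12 libraries, and PAX5, the factor of B cell identity, was at most 0.0361 CPM in each library. Of the list of markers of other cell types, KRT8, a keratin, and PECAM1, an adhesion molecule, rose in both clones, of 7 genes tested, beside 10.6% of all genes. The summed endothelial markers went from at most 1.09 CPM at 24 h to 1.88 to 2.99 CPM at 48 h with VWF at 0 and CDH5 at most 0.0391 CPM. The part of other cells in these changes was not tested. The B cell genes that fell in both clones were SPIB, BTK, ID3, CD53 and BACH2.

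**Figure D5:**
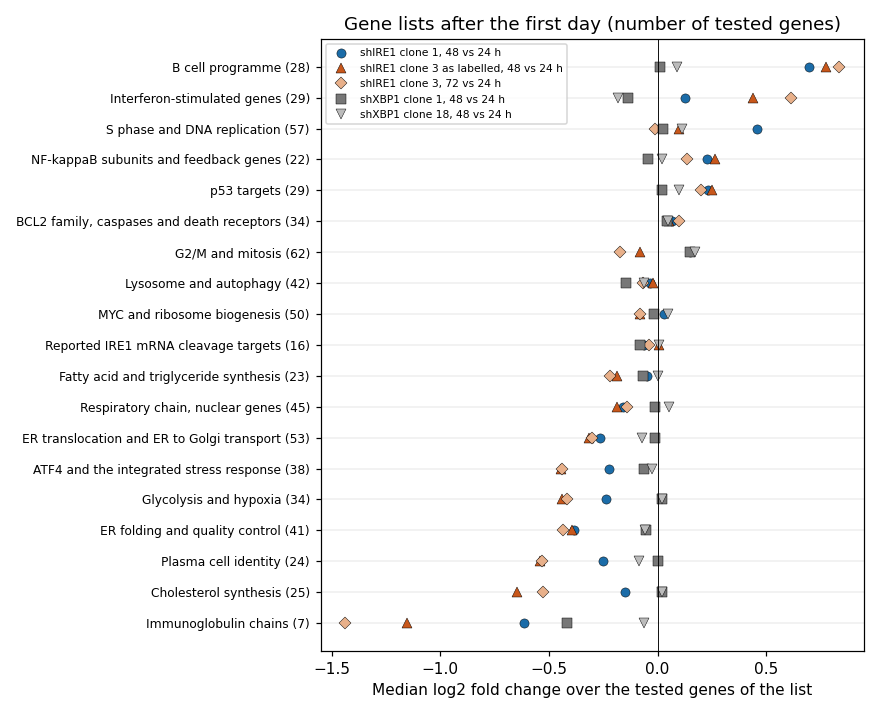
Median log2 fold change of each gene list over its tested genes (number in brackets) in clone 1, in the libraries labelled clone 3 and in both shXBP1 clones at 48 against 24 h, and in clone 3 at 72 against 24 h. Immunoglobulin, cholesterol, plasma cell and ER lists lie left of 0 in all 3 shIRE1 contrasts and the B cell list right of it, while the S phase and G2/M lists differ between the shIRE1 contrasts.

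Genes of the cell cycle did not form 1 shared step. On the first day 57 of 57 S phase genes had fallen in clone 1 and 54 in clone 3, beside 29% and 23.3% of all genes. The medians of that day were -1.47 and -1.24. From 24 to 48 h 46 rose and 0 fell in clone 1 (edgeR, also 0 at an unadjusted p under 0.05), while in the libraries labelled clone 3 19 rose and 5 fell, and all of these 19 risers were shared. Of all genes tested 16% rose and 14.3% fell in clone 1, and 17.2% and 17.4% did in the libraries labelled clone 3. In both 10.6% rose. In clone 3 at 72 h 10 S phase genes were above and 13 below the 24 h level, beside 16.4% and 17.1% of all genes. The medians of the 3 contrasts were 0.46, 0.10 and -0.013. CCNE2, cyclin E2, rose from 6.01, 4.998 and 4.66 to 10.7, 11.2 and 13 CPM in clone 1 and from 5.16, 4.298 and 4.72 to 8.997, 8.799 and 8.23 CPM in the libraries labelled clone 3, against 14.8, 14.8 and 13.6 and 11.9, 13.8 and 13.6 CPM at 0 h. RRM2, a subunit of ribonucleotide reductase, rose from 95.2, 95.1 and 91.5 to 168, 159 and 175 CPM and from 102, 81.4 and 83.7 to 116, 117 and 119.8 CPM, and stayed below its 0 h level of 417, 439.7 and 392 and 294, 271 and 245 CPM. UHRF1, which maintains DNA methylation, rose by 1.09 ± 0.13 in clone 1 and 0.58 ± 0.16 in the libraries labelled clone 3, and the change in clone 3 at 72 h was 0.06 ± 0.16 (adjusted p = 0.803).

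The G2/M genes split further. On the first day 62 and 60 of 62 had fallen, beside 29% and 23.3% of all genes. Then 32 rose in clone 1 at 48 h, but 3 rose and 10 fell in the libraries labelled clone 3. In clone 3 at 72 h 2 rose and 24 fell. Of all genes tested 16% rose in clone 1, 17.2% rose and 17.4% fell in the libraries labelled clone 3, and 16.4% rose and 17.1% fell in clone 3 at 72 h. Shared were the rises of BUB1, a kinase of the spindle checkpoint (0.39 ± 0.04 and 0.41 ± 0.06), and TOP2A, topoisomerase II alpha (0.51 ± 0.04 and 0.29 ± 0.08), and the fall of PTTG1, securin (-0.44 ± 0.06 and -0.53 ± 0.08). The difference of TOP2A from shXBP1 was 0.20 ± 0.08 (adjusted p = 0.0616). Whether the clones differ in this step cannot be read from the labels as they stand.

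Of 38 genes of ATF4 and the integrated stress response, 26 fell and 1 rose in both clones, beside 10.5% and 10.6% of all genes. With clone 3 at 72 h added 24 fell and 1 rose, and the medians were -0.23, -0.45 and -0.44. SLC7A11, the cystine transporter, was at 35.6, 33.9 and 32.6 CPM at 24 h and 14.8, 14.5 and 17.5 CPM at 48 h in clone 1, and at 42.2, 41.7 and 41.97 and 16.1, 16.3 and 15.3 CPM in the libraries labelled clone 3. No 48 h library overlapped a 24 h one. CTH, cystathionine gamma-lyase, changed by -0.86 ± 0.08 and -1.54 ± 0.10, and CHAC1, which degrades glutathione, by -0.90 ± 0.11 and -1.19 ± 0.13. CTH differed between the clones at 24 h by -0.56 ± 0.09. On the first day the list had fallen more in clone 3 (median -0.79) than in clone 1 (-0.19), and clone 3 had started higher, as with CHAC1 at 51.8, 44.3 and 49.6 CPM at 0 h against 5.93, 6.85 and 6.71 CPM.

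Lipid and sugar metabolism fell in part, beside 10.5% of all genes that fell and 10.6% that rose in both clones. Of 25 genes of cholesterol synthesis, 13 fell and 0 rose in both clones, the same numbers with clone 3 at 72 h added. In the libraries labelled clone 3 22 fell against 13 in clone 1, beside 17.4% and 14.3% of all genes. The medians were -0.15, -0.65 and -0.53. At an unadjusted p under 0.05 (edgeR), 15 lay lower and 0 higher in both. INSIG1, which holds the sterol sensor in the ER, went from 383, 365 and 366 to 266, 244 and 273 CPM in clone 1 and from 353, 325 and 348 to 118, 135 and 141 CPM in the libraries labelled clone 3. CYP51A1 and MSMO1, demethylases of the sterol ring, changed by -0.61 ± 0.05 and -0.53 ± 0.05 in clone 1 and by -1.02 ± 0.05 and -1.08 ± 0.08 in the libraries labelled clone 3. Of 23 genes of fatty acid and triglyceride synthesis, 6 fell and 2 rose in both, 4 and 1 with clone 3 at 72 h added, among them SCD, the stearoyl-CoA desaturase, from 667, 645 and 670.3 to 466, 427 and 453 CPM and from 645, 691 and 699 to 271, 279 and 282 CPM. The desaturases FADS1 and FADS2 changed by -0.32 ± 0.04 and -0.31 ± 0.08 in clone 1.

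Of 34 genes of glycolysis and the hypoxia response, 21 fell and 2 (PFKFB3, a regulator of glycolytic flux, and HIF1A itself) rose in both clones. Of all genes 10.5% fell and 10.6% rose in both. With clone 3 at 72 h added 20 fell and 2 rose. The medians were -0.24, -0.44 and -0.42. PFKFB4, which sets fructose 2,6-bisphosphate, fell from 12.5, 9.85 and 13.9 to 5.06, 4.05 and 3.69 CPM in clone 1 and from 21.4, 22.1 and 18.2 to 2.31, 2.51 and 2.25 CPM in the libraries labelled clone 3, with 2.704, 2.85 and 1.86 CPM at 72 h and a clone difference of -0.78 ± 0.14 at 24 h. In the shXBP1 clones it rose over the same day, by 0.99 ± 0.16 and 0.63 ± 0.14 (adjusted p = 0.0112 and 0.0331). NDRG1, induced by hypoxia, fell from 50.01, 49.8 and 53.8 to 28.5, 27.3 and 29.3 CPM and from 53.9, 55.1 and 59.05 to 22.7, 21.8 and 21.4 CPM. Of 45 nuclear genes of the respiratory chain, 16 fell and 1 rose in both clones, 11 and 0 with clone 3 at 72 h added, by small amounts such as -0.47 ± 0.06 and -0.56 ± 0.09 for NDUFB3 and -0.44 ± 0.05 and -0.40 ± 0.09 for NDUFB10, subunits of complex I. ATP5G1, a subunit of the ATP synthase ring, changed by -0.37 ± 0.05 and -0.45 ± 0.10.

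MYC fell after the first day, from 1178, 1286 and 1263 to 971, 903 and 853 CPM in clone 1 and from 1309, 1529.5 and 1465 to 805, 772 and 808 CPM in the libraries labelled clone 3 (-0.44 ± 0.05 and -0.85 ± 0.07), and stood at 831, 859 and 771 CPM in clone 3 at 72 h. Its list of MYC and ribosome biogenesis genes did so much less, with 6 of 50 falling and 2 rising in both clones (4 and 1 with clone 3 at 72 h added), near and below the background of 10.5% and 10.6%, and medians of 0.028, -0.083 and -0.08. NPM1, nucleophosmin, whose many pseudogenes make its count uncertain, changed by -0.26 ± 0.04 and -0.60 ± 0.15. In clone 3 at 24 h NPM1 was at 169, 99.3 and 105 CPM, the first of these in the library that stood apart. NPM3 changed by -0.17 ± 0.06 and -0.45 ± 0.07.

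Several genes of cell death and of p53 rose. BCL2L11 (BIM), a pro-apoptotic BH3 protein, was at 154, 154 and 154 CPM at 24 h and 248, 256 and 263 CPM at 48 h in clone 1. Clone 3 held 147, 154 and 152 CPM, then 411, 405 and 405 CPM in the libraries labelled 48 h and 371, 368 and 376 CPM at 72 h (0.74 ± 0.04, 1.43 ± 0.04 and 1.29 ± 0.04). FAS, the death receptor, rose from 117, 111 and 106 to 169.7, 173 and 184 CPM and from 115, 99.8 and 96.7 to 174, 178 and 173 CPM. BIRC3, an inhibitor of apoptosis, rose too (0.49 ± 0.05 and 0.72 ± 0.07). Of 34 genes of the BCL2 family, caspases and death receptors 9 rose and 6 fell in both clones, beside 10.6% and 10.5% of all genes, and 8 and 6 with clone 3 at 72 h added, with medians of 0.064, 0.053 and 0.1. Of 29 p53 targets 14 rose and 1 (CCNG1) fell, 12 and 1 with clone 3 at 72 h added, with medians of 0.23, 0.25 and 0.20. ZMAT3, an RNA-binding p53 target, and EDA2R, a receptor of the TNF family, rose by 0.43 ± 0.05 and 0.36 ± 0.06 in clone 1 and 0.70 ± 0.05 and 0.59 ± 0.05 in the libraries labelled clone 3.

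Of 22 NF-kappaB subunits and feedback genes 10 rose and 2 (CCL3 and TNIP2) fell in both clones, beside 10.6% and 10.5% of all genes, but 6 and 2 did with clone 3 at 72 h added. LTB, lymphotoxin beta, rose from 2.93, 3.67 and 3.5 to 10.6, 10.9 and 9.24 CPM and from 4.81, 4.66 and 5.63 to 12.6, 11.6 and 12.1 CPM, and NFKBIZ, a nuclear inhibitor-like cofactor, by 0.89 ± 0.11 and 1.13 ± 0.10. The direction of the list was thus opposite to that of CCL3, a chemokine often counted among its targets. Of 42 lysosome and autophagy genes 10 rose and 9 fell in both clones, beside the same background, and 8 and 7 with clone 3 at 72 h added. SQSTM1, the autophagy receptor p62, rose from 332, 386 and 431 to 586, 584 and 556 CPM and from 377, 459 and 459.6 to 758, 709.5 and 749 CPM, whereas the hydrolases GLA and GUSB changed by -0.61 ± 0.06 and -0.45 ± 0.04 in clone 1 and -0.71 ± 0.08 and -0.67 ± 0.05 in the libraries labelled clone 3.

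Reported targets of mRNA cleavage by IRE1 showed no shared step in 1 direction. Of 16 tested 2 rose and 1 fell in both clones, beside 10.6% and 10.5% of all genes. With clone 3 at 72 h added 2 rose and 0 fell, and the medians were -0.062, 0.0063 and -0.041. HGSNAT, a lysosomal acetyltransferase, rose from 14.5, 13.3 and 14.5 to 17.8, 19.03 and 19.5 CPM in clone 1 and from 12.98, 13.1 and 14.2 to 25.9, 24.1 and 24.96 CPM in the libraries labelled clone 3. TNFRSF10B, the death receptor DR5, rose by 0.23 ± 0.03 and 0.14 ± 0.05.

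The difference between the clones in this step was called in 746 of 18050 genes (4.13%), 398 of them within the shared second wave. It rests on the libraries labelled clone 3, 48 h, and cannot be read as a difference between clones while their labels conflict with their marker genes.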

How the data were processed

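The authors deposited a table of raw counts per gene (58302 genes, 48 libraries), from which every main result was computed, and a table of log2 CPM values that they had filtered and scaled, used in 1 alternative. The submitters' processing notes name GSNAP, GRCh37 or hg19, R 4.1.3, edgeR 3.32.1 and limma 3.46.0. The gene annotation and the use of strand in counting are not given in the sources used here. The library kit was a stranded one for mRNA.

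Counts were scaled by TMM, filtered with filterByExpr (minimum count 10, minimum total 15) and fitted with the quasi-likelihood F test of edgeR 4.0.16 in R 4.3.3. The 12 libraries of a shIRE1 clone were fitted together over 0, 24, 48 and 72 h. The 24 libraries of all 4 clones at 24 and 48 h were fitted together for the shXBP1 clones, for differences between clones and for the difference between shIRE1 and shXBP1 (each the mean of 2 clones). The Benjamini-Hochberg method adjusted p-values over the whole set of genes in a fit, and 0.05 was the threshold. Changes are log2 fold changes ± SE, and log2 CPM used a prior count of 2.

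Named were ERN1, XBP1 and IRF4, and the 8 largest rises and falls by the mean change of both clones. These were taken among genes called the same way, with a mean log2 CPM above 1 and with no overlap of 48 and 24 h libraries. Also named were the 5 largest each way among those within 0.25 of 0 on the first day, and up to 3 shared genes with the largest change from each of 20 gene lists. A few further members of the lists were named after their values were seen. Some genes of the lists are not reported here. The clones, the comparison, the lists and the rules were chosen with earlier results of these data known.

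Alternatives were RLE factors, no filter, other sets of libraries in the fit, DESeq2 1.42.0, limma 3.58.1 on the deposited log2 table, a replicate block, a fold threshold and leaving out each library. Deviations from the group mean of libraries with the same replicate number correlated at -0.0613 to 0.00404 in the shIRE1 clones, so the numbers did not pair libraries. Replicates differed beyond counting noise (mean chi-square per gene 2.57 to 22.1). The fits were tested on simulated data in which 200 genes above 1 CPM were changed by at least 2-fold. In clone 1 191 were recovered, in clone 3 196, and 198 and 185 in the differences between shRNAs and between clones. Of the calls 6.37%, 4.39%, 3.88% and 2.63% were false, in the same order. Changes below 2-fold, which most shared genes had, and changes in as many genes as in the data were not simulated. Columns matched to no sample numbered 0.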

Additional observations from a re-analysis of the deposited data

Results flagged for a closer look

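Of the 77 genes named in the text, 41 differed between the shIRE1 clones in the step from 24 to 48 h by the test of the difference itself (edgeR, adjusted p from 4.88e-14 to 0.0498). The values below are the log2 change of clone 1 minus that of clone 3. All of them rest on the 3 libraries labelled clone 3, 48 h, whose marker genes read as clone 1, so what they compare was not settled.

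Among genes that rose in both clones, the rise was larger in the libraries labelled clone 3 for TENM3 -3.48, DTX3L -2.59, CLEC7A -1.81, IFNG -1.46, HAPLN3 -1.39, ASAP2 -1.31, PARP14 -1.30, TRIM22 -0.96, BCL2L11 -0.70, HIST2H2BE -0.64, WNT5B -0.59 and HGSNAT -0.49. The rise of RRM2 was larger in clone 1, by 0.43.

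Among genes that fell in both clones, the fall was larger in the libraries labelled clone 3 by at least 2-fold for BTK 2.55, NES 1.75, CCL3 1.69, INHBE 1.69, PFKFB4 1.63, GPRC5D 1.35, DOCK8 1.23, MYBPC2 1.12 and ST3GAL6 1.05. It was larger by less than 2-fold for SFN 0.92, TXNDC5 0.91, IRF4 0.88, INSIG1 0.87, IGKC 0.85, SPRY2 0.82, ANKRD37 0.73, SCD 0.73, FADS1 0.71, PREB 0.70, TNFRSF17 0.67, CTH 0.67, MSMO1 0.54, NDRG1 0.50, SPIB 0.41, MYC 0.40, CYP51A1 0.40, HERPUD1 0.36 and XBP1 0.25. Of the genes in these lists, TENM3, BTK, DOCK8, INHBE, PFKFB4, CTH and SPRY2 also differed between the clones at 24 h on the side toward which clone 3 moved, by 3.29, -1.67, -1.44, -1.09, -0.78, -0.56 and -0.53 (clone 1 minus clone 3).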

How the results depend on the processing

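The step from 24 to 48 h held its counts under the alternatives. With RLE factors 3499 genes were shared by both shIRE1 clones (3451 of them among the 3550), with no filter 3545, with only the libraries compared 3554, with DESeq2 3253, with limma on the deposited log2 values 3315, and with all 48 libraries in the fit 2796. With clone 3 at 72 h in place of 48 h 3379 were shared, 3035 of them among the 3550. A log2 fold change of at least 1 in both clones left 288 shared genes. The difference between shIRE1 and shXBP1 fell from 5399 to 2866 genes with shIRE1 clone 1 alone. Leaving out single libraries gave 3012 to 3377 shared genes, 4046 to 4951 in clone 1, 4672 to 5463 in clone 3, 498 to 710 for the difference between the shIRE1 clones and 4893 to 5920 for that between shIRE1 and shXBP1. The 24 against 0 h counts then ran from 9864 to 9983 in clone 1 and from 6445 to 8495 in clone 3. For IRF4 the range was -0.82 to -0.74 in clone 1 and -1.71 to -1.63 in clone 3, for XBP1 -0.57 to -0.54 and -0.83 to -0.79, and for ERN1 -0.43 to -0.37 and -0.29 to -0.25.

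The shXBP1 counts were not stable. In clone 1 they were 330 with no filter, 0 with only the libraries compared (edgeR, 2244 at an unadjusted p under 0.05 in the reported fit) and 131 with DESeq2, and 1 to 446 when single libraries were left out. In clone 18 they were 13 with only the libraries compared, 227 with DESeq2, and 32 to 57 with single libraries left out. With the replicate number as a block they were 0 and 5, the difference between the shIRE1 clones was called in 351 genes and 3227 genes were shared by them. The numbers share no more than a number, and the cause of these shifts was not tested.

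For the single genes named, 2057 values kept their direction and their side of the threshold and 15 kept their direction only, none turned, and those that lost a call were NPM1, NPM3, UHRF1, TOP2A and TNFRSF10B. Of list counts 748 stayed within 1.5 times and 52 did not. Depth limits the lowest genes, where 1 count was up to 0.0415 CPM. Alternatives added after the data were seen were those that set other libraries in place of the conflicting ones, those of the shXBP1 clones and shIRE1 clone 1 alone.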

Other observations

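Values of 2 B cell genes that the naming rule left out were looked at after their values were seen. IRF8, a transcription factor of germinal centre B cells and myeloid cells, rose by 2.69 ± 0.16 in clone 1 and by 3.24 ± 0.19 in the libraries labelled clone 3, and by 3.56 ± 0.19 in clone 3 at 72 h (log2, SE, edgeR adjusted p = 5.88e-10, 6.18e-09 and 2.65e-09). Its mean level went from 0.364 CPM at 0 h to 0.609 CPM at 24 h and 3.93 CPM at 48 h in clone 1, and stayed at or below 0.117 CPM in the shXBP1 clones at 24 and 48 h. MS4A1 (CD20), a surface protein of B cells, rose by 2.0 ± 0.24 and 1.88 ± 0.28, to 1.91 CPM in clone 1 at 48 h and 1.29 CPM in the libraries labelled clone 3.

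The libraries labelled clone 1, 72 h and clone 3, 48 h can also be read by level. IRF4 was at 597, 603 and 610.5 CPM in the first and 303, 314 and 323 CPM in the second, beside 605, 545 and 578 CPM in clone 1 at 48 h and 327, 319.8 and 359 CPM in clone 3 at 72 h. Set against clone 1 at 24 h, whose marker genes they share, the libraries labelled clone 3, 48 h differed by 0.95 ± 0.08 for TENM3, -1.79 ± 0.11 for BTK and -1.64 ± 0.05 for IRF4 (log2, SE, edgeR). This comparison was added after the data were seen and uses libraries that the comparisons within each clone also use.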
